A study of Mus musculus with 8 samples.

Results

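The genes described here are 6 CXC chemokine ligands (*Cxcl1*, *Cxcl2*, *Cxcl3*, *Cxcl10*, *Cxcl12* and *Cxcl16*), the chemokine receptors *Cxcr2* and *Cxcr4*, and *Csf3r*, the receptor for granulocyte colony-stimulating factor. They were taken by symbol, 9 of the 32285 genes in the count tables. No cut on a measured value was used, but they were chosen with earlier results of these data known. All 9 were detected in CD45.2-positive cells sorted from mouse brain. CXC chemokines are small secreted proteins that draw leukocytes through G protein-coupled receptors. CXCL1, CXCL2 and CXCL3 bind CXCR2 and call neutrophils into inflamed tissue, whereas CXCL12 holds CXCR4-bearing cells in the bone marrow. Neutrophils gain CXCR2 and lose CXCR4 as they mature, and G-CSF acting through its receptor drives their production and release.

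The study asked how inflammation of the gut changes the immune cells of the brain in mice with an amyloid disease. WT mice, of the strain C57BL/6J, were set beside App NL-G-F mice (APPNL-G-F in the labels), in which the mouse *App* gene carries the Swedish, Beyreuther/Iberian and Arctic mutations of familial disease in a humanised amyloid sequence. Each genotype was given one of 4 conditions. The control groups drank water. Acute colitis was induced with 2% dextran sulphate sodium (DSS) in the water for 1 week, and chronic colitis with 3 cycles in which 5 days of 2% DSS alternated with 5 days of water. Food allergy was raised with ovalbumin, by injections with alum followed by oral doses. All mice were 16 weeks old by the sample labels. They were perfused, and the brain parenchyma was dissociated and cleared on Percoll before the sort. An antibody given into the blood before perfusion marked vascular leukocytes, and which cells it bound cannot be read from the RNA counts. Each of the 8 combinations is 1 library of cells pooled from several mice, marked with up to 4 hashtag antibodies that the labels do not tie to single mice. Hashtag 6 marked no cells in WT food allergy and in App NL-G-F acute colitis. With 1 library per condition there is no replicate, so no test was run, and every interval given covers counting error only.

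The libraries held 4877 to 7200 cells each and between 25621465 and 54619221 unique molecular identifiers (UMIs, 1 for each captured transcript) in those cells, with median depths of 2789 to 4130 UMIs per cell. Each pair of libraries shared 34 to 73 cell barcodes, which came to between 0.619% and 1.25% of the smaller library over the 28 pairs. The cells fell into 38 clusters, of which 32 took a name from marker genes and gave 23 cell classes, and each name stands for cells like that type. Levels are given in CPM, the UMIs of a gene per 1000000 UMIs of the cells summed. The markers of the classes used most were present to differing degrees. The least detected of each list were *Stfa2l1* in 31.9% of neutrophils, *Fcnb* in 31.7% of neutrophil precursors and *Lyve1* in 12.5% of macrophages. In monocytes it was *Ace*, in 15.0%, and in fibroblasts *Pdgfra*, in 33.1%. Others were found in more cells. *S100a8* and *Mmp9* were detected in 99.8% and 90.1% of neutrophils, *Elane* and *Prtn3* in 64.9% and 82.0% of neutrophil precursors, *C1qa* in 96.5% of macrophages, *Ccr2* in 84.0% of monocytes and *Dcn* in 74.5% of fibroblasts. Hashtag groups also differed in a way that the conditions did not set. The summed level of 10 immediate-early genes, which cells induce within minutes of stimulation, came to 577 to 1152 CPM in the T cells of 13 hashtag groups and to 2985 to 4806 CPM in those of 16 others. These are called the low and the high set below, and member values within each set stand beside those of whole libraries.

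The 3 CXCR2 ligands lie in a cluster on mouse chromosome 5. On GRCm38, *Cxcl3* spans chr5:90786103-90789600, *Cxcl1* chr5:90891241-90893115 and *Cxcl2* chr5:90903871-90905938, all on the plus strand. The starts of *Cxcl3* and *Cxcl1* are 105138 bases apart and those of *Cxcl1* and *Cxcl2* 12630 bases. *Cxcl10* is on the same chromosome at chr5:92346638-92348889 on the minus strand. The other members are spread out. *Cxcl12* lies at chr6:117168535-117181367 and *Csf3r* at chr4:126024550-126044440, both on the plus strand, and *Cxcl16* lies at chr11:70453983-70459984 on the minus strand. *Cxcr2* (chr1:74153989-74161246, plus strand) and *Cxcr4* (chr1:128588199-128592293, minus strand) share chromosome 1. *Cxcl2* and *Cxcl3* transcripts have a run of 157 identical bases, against 23 for either with *Cxcl1*, so how the counting divided reads between *Cxcl2* and *Cxcl3* is uncertain and their low-level values are best read together.

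The promoters of the clustered ligands are shown because *Cxcl2* was the member that differed most between hashtag groups and NF-kB response genes differed with it (both described further on). The sequences are the plus strand from 130 to 31 bases before the RefSeq start on GRCm38.p6, at chr5:90891115-90891214 for *Cxcl1*, chr5:90903769-90903868 for *Cxcl2* and chr5:90785971-90786070 for *Cxcl3*. Capitals mark matches to GGGNNTTTCC, a form of the motif that NF-kB proteins bind, on either strand.
Cxcl1: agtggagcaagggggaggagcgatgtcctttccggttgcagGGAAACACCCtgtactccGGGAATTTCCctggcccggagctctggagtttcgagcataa
Cxcl2: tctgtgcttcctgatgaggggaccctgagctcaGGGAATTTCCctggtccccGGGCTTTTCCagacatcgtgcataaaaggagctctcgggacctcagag
Cxcl3: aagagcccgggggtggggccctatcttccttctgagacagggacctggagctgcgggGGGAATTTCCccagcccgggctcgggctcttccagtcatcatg
Each of the 3 held 1 copy of GGGAATTTCC, which 13 of 32851 RefSeq promoters (0.0396%) held in the same window, and *Cxcl1* and *Cxcl2* each held a second match to the looser GGGNNTTTCC, found in 0.539% of promoters. Searched on both strands, GGGNNTTTCC includes every match to GGGAATTTCC. The stricter form was itself chosen as the match to the looser one that these 3 windows share. Its presence in all 3 was thus fixed by that choice, and they are among the 13 promoters. *Cxcl10* held neither, but had 1 match to GGGNNTTCCC, found in the same window in 0.627% of promoters. None of the 3 motifs was found in the 300 bases around the starts of *Cxcl12*, *Cxcr2*, *Cxcr4* and *Csf3r*. Of the 9 members, 8 had an entry in the RefSeq table. A match of letters is a description and not a measured site.

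The ligands were spread over different cell types. *Cxcl2* was the most widely detected of the ligands in myeloid cells. Neutrophils held 63547 of its 92208 UMIs (68.9%), a level of 1542 CPM (95% exact Poisson interval 1530 to 1554), and 45.6% of them had at least 1 UMI at a median depth of 6810 UMIs. B cells, taken as the background class, gave 0.340% at a median of 2386 UMIs. Macrophages followed at 1055 CPM, monocytes at 538 CPM, ILC2 at 218 CPM, type 2 dendritic cells at 169 CPM, fibroblasts at 168 CPM and neutrophil precursors at 164 CPM. Over libraries neutrophils ranged from 88.7 to 8132 CPM and macrophages from 407 to 2103 CPM. App NL-G-F acute colitis alone had a lower level in neutrophils than in macrophages. The level in neutrophils rested in part on the App NL-G-F acute colitis library, which held 26.6% of all neutrophils and 41.8% of their UMIs, and without it the level was 2587 CPM.

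*Cxcl1* and *Cxcl3*, the other ligands of CXCR2, were sparse. *Cxcl1* had 542 UMIs in 175 cells. Its level was highest in fibroblasts, at 53.7 CPM (43.8 to 65.1), followed by macrophages at 19.4 CPM, migratory dendritic cells at 8.57 CPM on 9 UMIs and ILC2 at 7.57 CPM. Neutrophils had 45 UMIs of *Cxcl1* in 14 of 5186 cells, or 1.09 CPM. The fibroblast level leaned on the WT control library, where 43 UMIs in 33 cells gave 256 CPM, and was 34.0 CPM without it. *Cxcl3* had 643 UMIs, of which neutrophils held 57.5% at 8.98 CPM (14.9 CPM without App NL-G-F acute colitis). In neutrophils both sparse ligands were detected in few cells, with 0.270% positive for *Cxcl1* and 2.01% for *Cxcl3*.

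*Cxcl10*, a ligand of CXCR3 that interferons induce, had 3399 UMIs. By class it was highest in monocytes at 63.1 CPM (58.1 to 68.3), type 2 dendritic cells at 43.7 CPM and macrophages at 35.8 CPM, with 3.95 CPM in neutrophils. The monocyte value is that of a single library. WT control monocytes held 557 of the 593 UMIs at 201 CPM, and without that library the level was 5.43 CPM. Within it, hashtag 6 held 458 UMIs in 18 of 166 monocytes, and 5 of those cells held 324 UMIs, or 70.7%, whereas hashtag 7 had 1 UMI in 138 monocytes. The highest level in any cluster was in 465 unnamed cells led by the interferon-stimulated genes *Ifit1*, *Ifit3* and *Isg15*. All 8 libraries gave *Cxcl10* in this cluster, from 154 CPM in App NL-G-F chronic colitis to 624 CPM in WT control.

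*Cxcl12*, the ligand of CXCR4, was almost restricted to a cell type that a CD45.2 sort should not hold. Fibroblasts held 95.1% of its 2783 UMIs at 1392 CPM (1340 to 1447), and 68.3% of the 357 fibroblasts had a UMI against 0.0993% of B cells. Macrophages, next in order, gave 4.89 CPM. In the 5 libraries with at least 20 fibroblasts *Cxcl12* came to 2300 CPM in WT control, 1449 with acute colitis, 1455 with chronic colitis and 1202 with food allergy in WT mice, and 1015 in the acute colitis library of App NL-G-F mice. No library of another class reached the lowest of these values.

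*Cxcl16*, a transmembrane chemokine that CXCR6-bearing lymphocytes bind, was carried by antigen-presenting cells. Migratory dendritic cells, dendritic cells on their way to lymph nodes, gave 763 CPM (711 to 817) with 62.7% of 201 cells positive. Their 4 libraries with at least 20 cells ran from 688 to 766 CPM, above macrophages, which gave 243 CPM and ranged from 139 to 281 CPM over 8 libraries. Fibroblasts (116 CPM), type 1 dendritic cells (99.1 CPM) and type 2 dendritic cells (86.0 CPM) followed, with ranges over libraries that overlapped. Neutrophils were low, at 4.51 CPM.

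**Figure D1:**
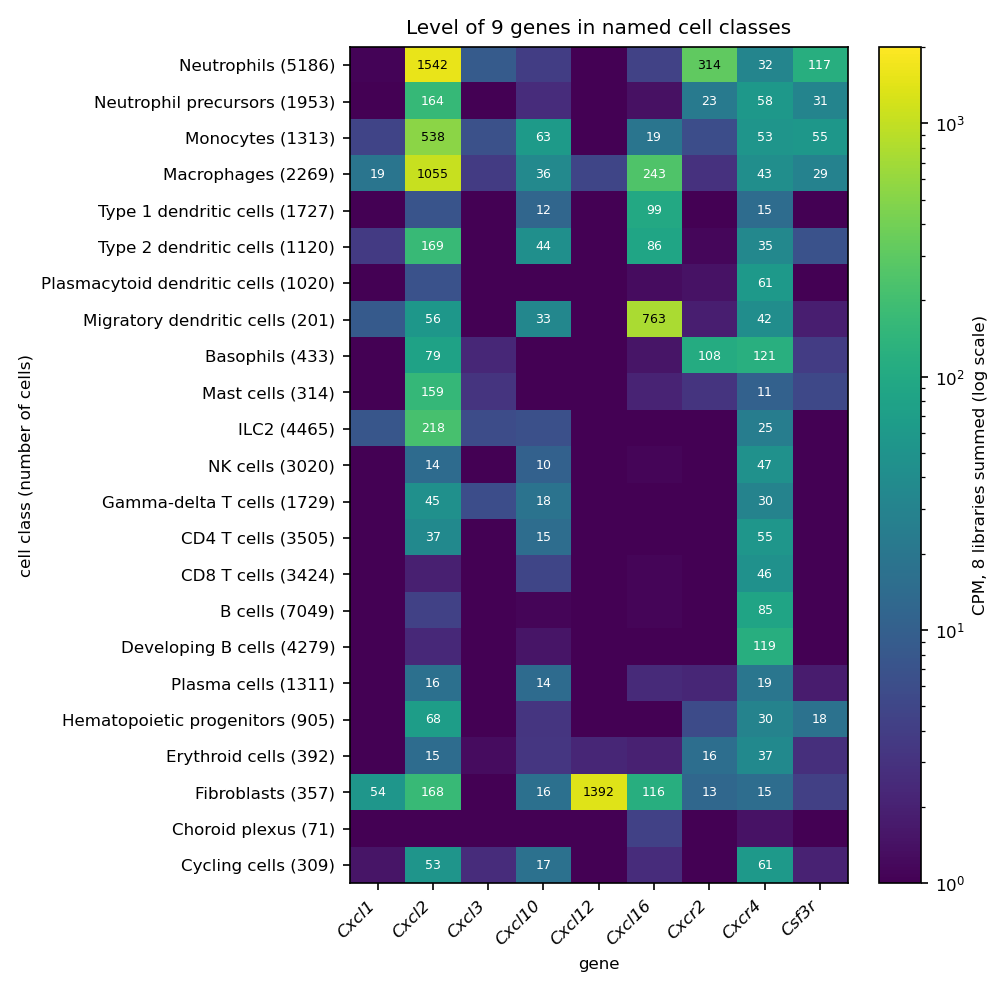
Heat map of the level of the 9 genes (columns) in the 23 named cell classes (rows, with the number of cells), with the 8 libraries summed and colour giving CPM on a log scale from 1 to 2000, and levels of at least 10 CPM are printed in the cells. *Cxcl12* is bright in fibroblasts (1392 CPM), *Cxcl16* in migratory dendritic cells (763 CPM) and *Cxcr2* in neutrophils (314 CPM), while *Cxcr4* has colour in most rows.

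The receptors differed in their spread over classes. *Cxcr2* was a gene of neutrophils, which held 90.1% of its 14356 UMIs at 314 CPM (309 to 319) with 72.3% of cells positive, against 0.0993% of B cells. Basophils gave 108 CPM and precursors 22.7 CPM. Over libraries the 3 classes did not overlap, with 235 to 420 CPM in neutrophils, 63.0 to 170 CPM in basophils and 3.54 to 57.3 CPM in precursors. Macrophages, a main source of the ligand *Cxcl2*, gave 2.94 CPM of *Cxcr2*.

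*Cxcr4* was detected in 21.4% of all cells and in most classes. It was highest in basophils at 121 CPM and in developing B cells at 119 CPM, which did not separate over libraries (89.1 to 148 and 90.5 to 153 CPM). B cells gave 84.5 CPM, plasmacytoid dendritic cells 60.8 CPM and neutrophil precursors 58.0 CPM. Neutrophils were lower, at 32.2 CPM with 20.0% of cells positive. The ranges of precursors (38.2 to 67.2 CPM) and neutrophils (16.6 to 127 CPM) overlapped.

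*Csf3r* followed the myeloid lineage. Neutrophils gave 117 CPM (114 to 120) and held 64.2% of its UMIs, and 50.7% of them were positive. Monocytes gave 55.3 CPM, precursors 31.3 CPM, macrophages 29.5 CPM and haematopoietic progenitors 17.6 CPM, while B cells gave 0.479 CPM. The library ranges of neutrophils (65.6 to 406 CPM) and monocytes (44.8 to 91.8 CPM) overlapped. After thinning each neutrophil to 1000 UMIs, which left out 304 shallower cells, the share with a UMI was 33.6% for *Cxcl2*, 27.4% for *Cxcr2*, 4.83% for *Cxcr4* and 14.9% for *Csf3r*.

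Between libraries, *Cxcl2* was the member that moved most in neutrophils and *Cxcr2* the one that moved least. In WT neutrophils *Cxcl2* came to 2778 CPM for control, 8132 for acute colitis, 1904 for chronic colitis and 3193 for allergic mice. With App NL-G-F the same order gave 1496, 88.7, 1768 and 2284 CPM. App NL-G-F acute colitis was low and WT acute colitis high, with the 6 others between 1496 and 3193 CPM. *Cxcr2* in the same order came to 338, 286, 246 and 235 CPM for WT and 306, 345, 420 and 324 CPM for App NL-G-F. *Cxcr4* came to 17.9, 127, 63.4 and 33.0 CPM for WT, then 35.8, 16.6, 49.0 and 46.4 CPM for App NL-G-F. WT acute colitis was again the highest. *Csf3r* came to 155, 406, 147 and 141 CPM for WT, then 105, 65.6, 181 and 159 CPM for App NL-G-F, with the same libraries at the top and the bottom as for *Cxcl2*. The libraries held 238, 210, 642 and 1057 WT neutrophils and 382, 1378, 504 and 775 App NL-G-F neutrophils, and their median depth ran from 2168.5 UMIs, with acute colitis in WT mice, to 12544.5, with acute colitis of App NL-G-F mice.

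**Figure D2:**
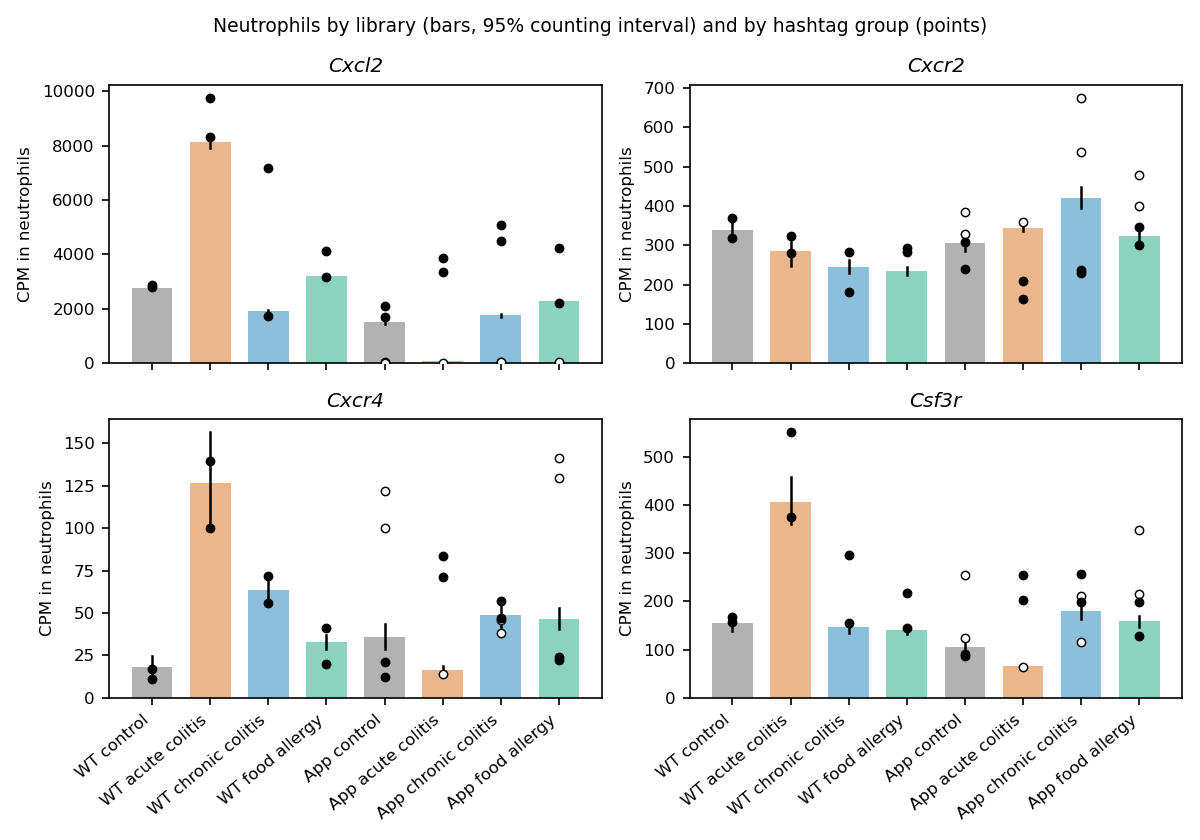
Levels of *Cxcl2*, *Cxcr2*, *Cxcr4* and *Csf3r* in the neutrophils of each library, in CPM on linear axes, 1 panel per gene. Bars are whole libraries with 95% Poisson intervals as lines, open points are hashtag groups of the low set and filled points those of the high set. In App NL-G-F acute colitis the *Cxcl2* bar, 88.7 CPM, is barely visible, while the 2 filled points of that library lie at 3367 and 3875 CPM.

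The hashtag groups showed what the library values averaged. Of the 30 groups, 23 held at least 20 neutrophils, and *Cxcl2* divided them without overlap along the T cell sets. In the 7 low groups, all from App NL-G-F libraries, *Cxcl2* ran from 10.9 to 54.5 CPM with a median of 24.6. In the 16 high groups, from all 8 libraries, it ran from 1682 to 9761 CPM with a median of 3621. The sets were made from immediate-early genes in T cells and not from any member or any neutrophil. App NL-G-F acute colitis held 1 large low group, hashtag 7 with 1179 neutrophils at 14.5 CPM, and 2 small high groups of 47 and 34 neutrophils at 3367 and 3875 CPM. In the other App NL-G-F libraries the low groups were 28.2 and 10.9 CPM (control), 24.6 and 54.5 CPM (chronic colitis) and 21.7 and 28.8 CPM (food allergy). Their high groups were 1682 and 2093, 5077 and 4489, and 2206 and 4226 CPM in the same order. Every library with both kinds of group thus showed the same order.

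The other members did not divide in this way. *Cxcr2* ran from 328 to 676 CPM in the low groups and from 163 to 368 CPM in the high groups, so the ranges overlapped, although in each of the 4 App NL-G-F libraries every low group lay above every high group. *Cxcr4* (14.2 to 141 CPM in low and 11.1 to 140 CPM in high groups) and *Csf3r* (64.9 to 347 and 86.4 to 551 CPM) overlapped almost throughout. *Cxcl3*, the near copy of *Cxcl2*, had 16 UMIs in the low groups and 310 in the high groups, at 0.894 and 20.3 CPM. *Cxcl1* and *Cxcl10* had 0 UMIs in the neutrophils of the low set, and 29 and 73 in those of the high set.

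**Figure D3:**
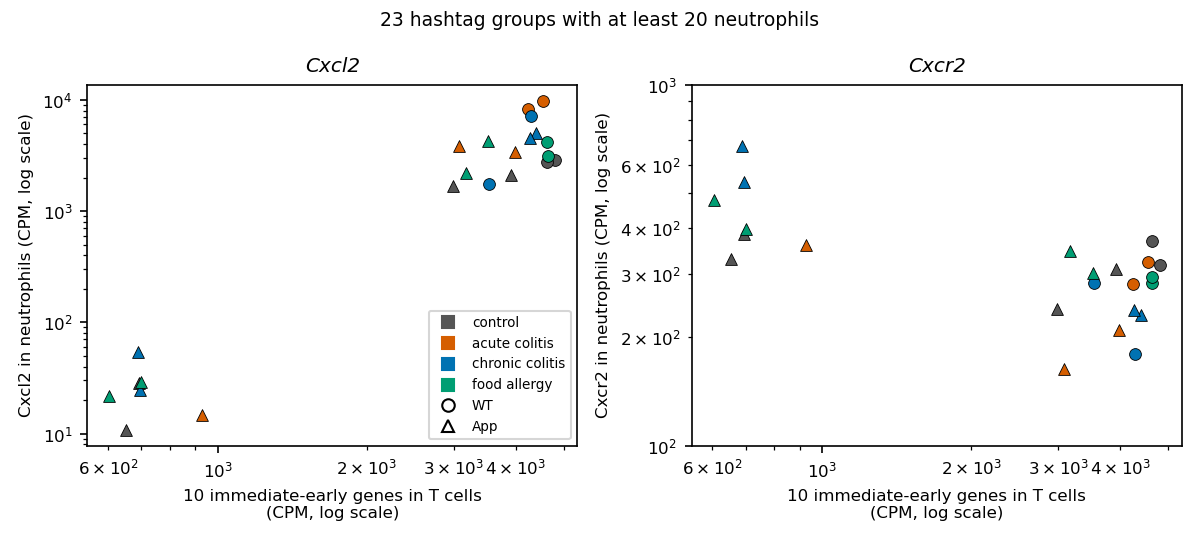
Level of *Cxcl2* (left) and *Cxcr2* (right) in the neutrophils of 23 hashtag groups against the summed level of 10 immediate-early genes in the T cells of the same group, all in CPM on log axes. Each point is a hashtag group, with colour for the condition, circles for WT and triangles for App NL-G-F. For *Cxcl2* the 7 low groups at the lower left (10.9 to 54.5 CPM) are apart from the 16 high groups at the upper right (1682 to 9761 CPM), and for *Cxcr2* the ranges overlap.

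Different clusters held the neutrophils of the sets. The cluster of 2220 cells led by *Olfm4* and *Asprv1*, 80.3% of them from the low set, had *Cxcl2* at 28.5 CPM and *Cxcr2* at 366 CPM. The cluster of 1867 cells led by *G0s2* and *Fosl1* had 1595 and 179 CPM, and that of 1099 cells led by *Acod1* and *Il1b* had 7436 and 522 CPM. Of these 2 clusters, 0.857% and 0.182% of the cells were from the low set. *Csf3r* came to 82.4, 77.0 and 380 CPM in the 3 clusters in that order. The libraries were spread over them unevenly. The *Olfm4* cluster held 90.9% of App NL-G-F acute colitis neutrophils, 38.3% to 45.3% in WT chronic colitis and the other App NL-G-F libraries, and 0.952% to 2.74% in the other WT libraries, and the *Acod1* cluster held 67.1% in WT acute colitis against 39.5% in WT control. Droplets with several hashtags made up 5.54%, 21.2% and 11.6% of the 3 clusters, and 28.7% of macrophages.

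Cells of other types carried the same division of *Cxcl2*. Macrophages of the low set had 0 UMIs of *Cxcl2* in 98 cells, and those of the high set 1293 CPM. ILC2 gave 2.35 CPM in 675 low and 262 CPM in 3578 high cells, basophils 0.509 CPM in 303 and 566 CPM in 50 cells, and precursors 1.05 CPM in 522 and 148 CPM in 975 cells. Basophils, which also carry *Cxcr2*, gave 117 and 118 CPM of that receptor in the 2 sets. *Cxcl16* in macrophages was 213 CPM in the low and 305 CPM in the high set. Low set monocytes came to 25 cells, with no hashtag group of at least 20, and their value is not given here.

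For contrasts between libraries, the log2 ratio of CPM with 10 CPM added to each was used. A gene was compared where both libraries together held at least 50 of its UMIs and at least 1 of them reached 50 CPM, and it was called where the ratio passed 2-fold. The intervals given with log2 ratios are exact for the ratio of the counts without the added 10 CPM, so they need not centre on the ratio printed. The WT treatments share the WT control library, and the App NL-G-F treatments share the App NL-G-F control library. *Cxcl1*, *Cxcl3*, *Cxcl10*, *Cxcl12* and *Cxcl16* did not reach these limits in neutrophils in any of the 7 contrasts between libraries.

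WT acute colitis had the most called members. Of the 4 compared, 3 were higher than in WT control, while 19.6% of the 2416 genes compared were called (12.7% as higher) and the median of all genes was 0.10. *Cxcr4* was higher by 2.29 on the log2 scale (2.26 to 3.40), *Cxcl2* by 1.55 (1.5 to 1.60) and *Csf3r* by 1.33 (1.15 to 1.62), and *Cxcr2* gave -0.23 (-0.48 to -0.01). With cells called by the order-of-magnitude cutoff on UMIs per barcode alone, *Cxcr4* at 1.87 was the 1 member called, *Cxcl2* gave 0.95 and *Csf3r* 0.24. Within the high set the values were 2.34, 1.65, 1.41 and -0.17, with 22.2% of genes called (13.8% as higher). In WT chronic colitis only *Cxcr4*, of 4 compared, was called, at 1.39 (1.33 to 2.35), with 10.4% of genes called and a median of all genes of -0.24, and at 1.41 in the high set, with 10.3% of genes called. The neutrophils of these libraries lay in different clusters, as given above, with 38.3% of WT chronic colitis and 1.26% of WT control in the *Olfm4* cluster. *Cxcl2* was lower there by less than 2-fold, at -0.54. In WT food allergy none of 3 was called, with 5.23% of genes called, and *Cxcr2* gave -0.51 (-0.65 to -0.40) beside a median of all genes of -0.15. None was called within the high set, with 3.23% of genes called.

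In App NL-G-F acute colitis *Cxcl2* was the 1 member called of 3 compared, at -3.93 (-4.16 to -3.99), and 5.16% of genes were called. That value came with the make-up of the library. Its hashtag 7 lay in the low set, whereas App NL-G-F control had both kinds of group, and the contrast and the set cannot be told apart at the level of the library. The contrast was 0.89 (0.78 to 1.0) within the high set, with 12% of genes called, and without hashtag 7 it was -1.06 over the remaining cells, those with no single hashtag included. Within the low set *Cxcl2* was too low to compare, and *Cxcr4* at -2.25 (-3.34 to -2.42) and *Csf3r* at -1.13 (-1.59 to -0.88) were called as lower, with 19.5% of genes called (12.2% as lower). In the high set *Csf3r* was called as higher, at 1.24, the opposite direction. *Cxcr2* gave 0.17 in the whole library, 0.07 in the low and -0.54 in the high set.

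Food allergy and chronic colitis had, in App NL-G-F, none of 3 compared members called in whole libraries, with 1.16% and 1.37% of genes called. Within the high set of chronic colitis, *Cxcl2* at 1.29, *Cxcr4* at 1.29 and *Csf3r* at 1.31 were each called as higher, with 10.7% of genes called (6.9% as higher). Within its low set *Cxcr4* was called as lower, at -1.15 (-1.92 to -0.73), with 4.82% of genes called. Food allergy had no member called in the low or the high set, with 1.17% and 1.7% of genes called. App NL-G-F control against WT control had none of 3 called, with 4.79% of genes called and a median of all genes of -0.27, and *Cxcl2* gave -0.89 in all cells and -0.55 in the high set, where again none was called, with 3.23% of genes called.

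High groups were also set against low groups inside each App NL-G-F library, where the treatment is the same. *Cxcl2* was higher in the high set by 6.29 on the log2 scale in control mice, 7.19 with acute colitis, 6.58 with chronic colitis and 6.33 with food allergy, with 19.1%, 23.3%, 14.7% and 12.9% of genes called. Acute colitis had 3 members called as higher, beside 15% of genes. *Cxcr2* was lower in the same libraries, at -0.27, -0.88, -1.33 and -0.31, and was called in chronic colitis alone. *Cxcr4* went both ways, at -2.16, 1.87, 0.28 and -2.09 in that order. *Csf3r* did likewise, at -0.73, 1.64, 0.50 and -0.53.

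*Cxcr4* and *Csf3r* moved with depth and with the granule content of the cells, and *Cxcr2* did so less. Over the hashtag groups of one set, *Cxcr4* in neutrophils was lower where cells were deeper, with r = -0.974 to the log2 median UMIs over 7 low groups and -0.906 over 16 high groups. With the share of neutrophils that had under 1% of UMIs from granule genes, r was 0.849 and 0.874. *Csf3r* gave -0.813 and -0.854 with depth, and 0.949 and 0.880 with that share. *Cxcl2* gave -0.777 with depth and 0.830 with the share in the high set, and -0.043 and 0.217 in the low set. *Cxcr2* gave 0.203 and 0.505 with depth, and 0.084 and -0.223 with the share, in the low and the high set. These are descriptions over groups that share libraries, and the part of depth in any contrast was not tested.

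To follow the members along the lineage, neutrophils and precursors were divided by granule genes, which are made in order as the cells mature. The first cells had at least 1% of their UMIs from azurophil granule genes (*Elane*, *Mpo*, *Prtn3*, *Ctsg* and *Ms4a3*), the next had at least 10% or 1% to 10% from secondary granule genes (*Ltf*, *Ngp*, *Camp* and *Lcn2*), and the last, in neutrophil clusters, had under 1% of either. The cuts were set after the spread of these shares showed no low point, and each stage is a range and not a type. Cells within 1.25 times of a cut came to 91 of 581, 773 of 2055, 736 of 2775 and 101 of 904. Median depth fell along the stages, at 23020, 11929, 6024 and 1907 UMIs, so levels in CPM are shares of a falling total.

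*Cxcr2* rose in CPM along this order. Its median over libraries was 7.60 CPM in azurophil cells, 133 in secondary high, 374 in secondary low and 476 in granule-poor cells. The range in azurophil cells (5.02 to 8.52 CPM) lay below that in secondary high cells (41.5 to 267 CPM), which overlapped with secondary low cells (257 to 572 CPM). In CPM, *Cxcr4* ran the other way at first and then rose, with medians of 61.7, 21.7, 42.0 and 109 CPM. Azurophil cells (42.2 to 66.9 CPM) lay above secondary high cells (13.4 to 39.6 CPM), and granule-poor cells (74.1 to 242 CPM) lay above both. By count, *Cxcr4* had 767 UMIs in 581 azurophil cells and 309 in 904 granule-poor cells. *Cxcr2* had 7702 UMIs in 2775 secondary low cells and 1195 in the 904 granule-poor cells. The part of depth in these levels was not tested. A further 824 cells of the precursor clusters, with under 1% of either kind, had a median of 78.1 CPM of *Cxcr4* and 1.22 CPM of *Cxcr2*.

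*Csf3r* was highest at the end. Its medians were 29.0, 50.3, 144 and 519 CPM, and granule-poor cells (363 to 793 CPM) did not overlap with secondary low cells (82.6 to 204 CPM). *Cxcl2* had medians of 20.1, 848, 1941 and 6584 CPM, and both the stages and the sets differed. In the low set it was 0.665, 5.98, 26.5 and 162 CPM, and in the high set 29.2, 950, 3217 and 10734 CPM. *Cxcr2* in the low set was 4.65, 273, 477 and 661 CPM and in the high set 6.13, 117, 377 and 544 CPM, so the rise was present in both.

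**Figure D4:**
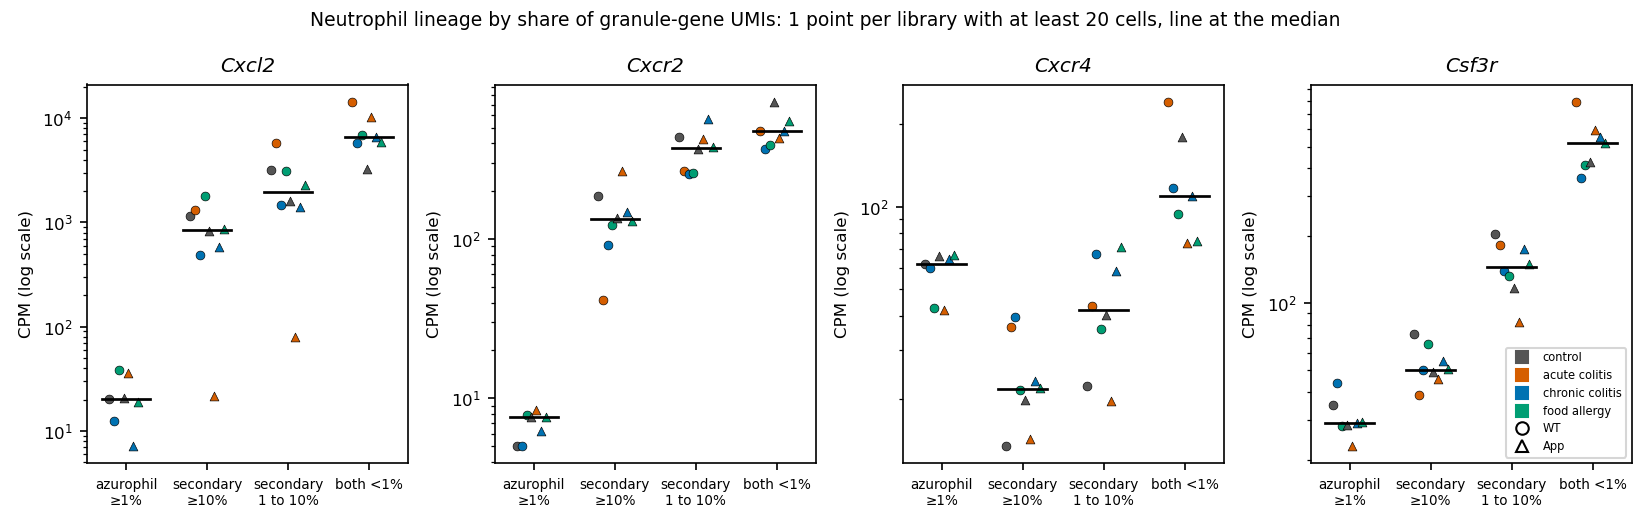
Levels of *Cxcl2*, *Cxcr2*, *Cxcr4* and *Csf3r* in 4 ranges of granule gene content of the neutrophil lineage, in CPM on log axes, 1 panel per gene. Each point is a library with at least 20 cells in the range (circles WT, triangles App NL-G-F, colour for the condition), and the bar is the median of the libraries. *Cxcr2* rises from a median of 7.60 to 476 CPM, *Csf3r* from 29.0 to 519 CPM, and *Cxcr4* is lowest in secondary high cells, at 21.7 CPM.

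The share of granule-poor cells differed between libraries. It was 55.9% of the lineage in WT acute colitis and between 2.53% and 18.5% in the others. In those cells WT acute colitis had 242 CPM of *Cxcr4* and 793 CPM of *Csf3r*, both the highest of the 7 libraries with at least 20 such cells. In its 48 secondary high cells *Csf3r* was 39.0 CPM, the lowest of 8 libraries, and *Cxcr4* was 36.6 CPM. App NL-G-F acute colitis had the lowest share of granule-poor cells, 2.53% or 40 cells, and these gave *Cxcl2* at 10200 CPM against 21.6 CPM in its 677 secondary high cells. Of its neutrophils, 0% were granule-poor in hashtag 7, of the low set, and 42.6% and 35.3% in hashtags 4 and 5, of the high set. Stage and set cannot be told apart in this comparison.

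Neutrophil precursors had few members to compare. In whole libraries *Cxcl2* was called in 3 contrasts. It was higher in WT food allergy by 2.85 on the log2 scale (2.77 to 3.17), where 2 of 3 compared members and 12.1% of genes (4.34% as higher) were called, and *Cxcr2* was also higher there, at 1.23 (1.14 to 2.14). The precursors lay in different clusters, with 66.4% of WT food allergy and 20.0% of WT control in the one led by *Fcnb*, *Camp* and *Cebpe*, and the part of stage in these values was not tested. Within the high set *Cxcl2* was higher by 1.43, with 2.1% of genes called, and *Cxcr2* was too low to compare. It was higher in the 35 cells of WT acute colitis, by 1.11 with 3.55% of genes called, which was 0.77 in the high set. It was lower in App NL-G-F acute colitis, at -1.41 with 1.67% of genes called. Of its 202 precursors 153 carried hashtag 7 of the low set, at 0.963 CPM, whereas App NL-G-F control had a low group at 0 and high groups at 16.4 and 199 CPM. It was also lower within the high set in WT chronic colitis, at -1.64 (-2.13 to -1.49) with 11.8% of genes called, and in App NL-G-F food allergy, at -1.88 (-2.65 to -1.81) with 0.571%. The level in WT food allergy, 799 CPM, came beside an ambient profile with 961 CPM of *Cxcl2*, the highest of the 8 libraries, while its B cells had 8.53 CPM. Ambient RNA was estimated, from *S100a8* and *S100a9* in B cells, at 0.441% of the UMIs of that library. *Cxcr4* was compared in all 7 contrasts and called in none, with values between -0.64 and 0.20. No member was called in whole libraries in WT chronic colitis, App NL-G-F chronic colitis, App NL-G-F food allergy or App NL-G-F control against WT control, where 2.72%, 0.676%, 0.282% and 2.46% of genes were called.

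**Figure D5:**
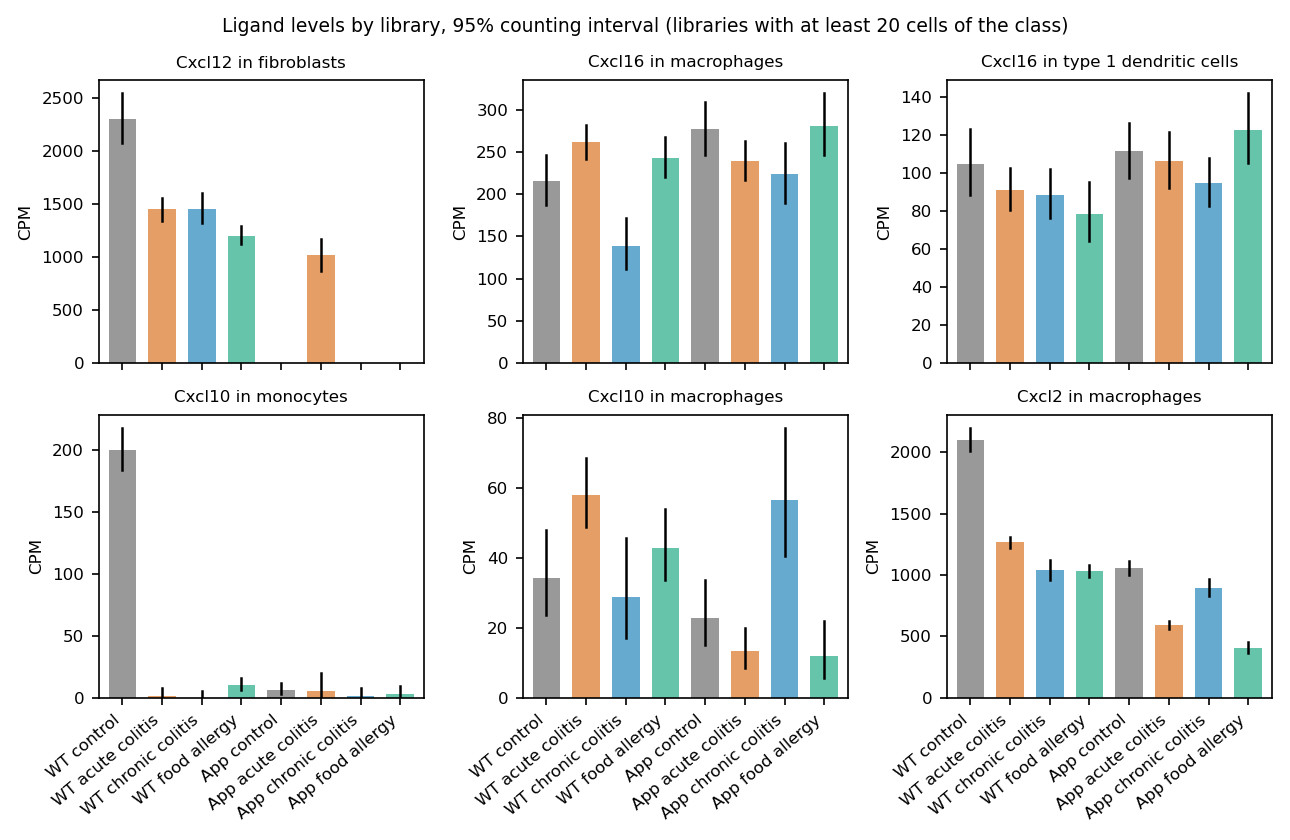
Levels by library of *Cxcl12* in fibroblasts, *Cxcl16* in macrophages and type 1 dendritic cells, *Cxcl10* in monocytes and macrophages, and *Cxcl2* in macrophages, in CPM on linear axes, 1 panel for each pair. Bars are library values with 95% Poisson intervals as lines, and a library with fewer than 20 cells of the class has no bar. *Cxcl2* in macrophages is highest in WT control, at 2103 CPM, and *Cxcl10* in monocytes reaches 201 CPM in WT control and at most 10.3 CPM elsewhere.

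In macrophages *Cxcl2* was highest in WT control. The level was 2103 CPM there, and 1266 CPM with acute colitis, 1041 CPM with chronic colitis and 1036 CPM with food allergy. App NL-G-F mice, control first, gave 1056, 593, 895 and 407 CPM. Against its own control it was called as lower with chronic colitis in WT, at -1.01 (-1.14 to -0.89), with food allergy in WT, at -1.02 (-1.11 to -0.93), and in App NL-G-F food allergy, at -1.35 (-1.55 to -1.20), with 4.71%, 2.93% and 1.32% of genes called. Acute colitis gave -0.73 for WT and -0.82 for App NL-G-F mice, within 2-fold, with 6.27% and 2.03% of genes called. All 3 WT treatments passed 2-fold within the high set, at -1.0, -1.17 and -1.32, with 6.09%, 6.4% and 3.57% of genes called. So did App NL-G-F food allergy, at -1.07 with 1.07% of genes called, and App NL-G-F control against WT control, at -1.05 with 2.82%, where the whole libraries had no member called and 2.56% of genes were. *Cxcl16* in macrophages was compared in all 7 contrasts and called in none, with values from -0.59 in WT chronic colitis to 0.35 in App NL-G-F control against WT control. *Cxcl10* was called as higher in App NL-G-F chronic colitis, at 1.02 (0.56 to 2.07), with 1.18% of genes called. Its 40 UMIs stood against 26 in control, and in the high set it was too low to compare. *Cxcl10* passed 2-fold in the high set of WT acute colitis, at 1.36 (0.73 to 3.18) on 99 UMIs against 7.

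Monocytes of WT control also stood above the other libraries in *Cxcl2*. They had 1143 CPM against 333 CPM with acute colitis, 166 CPM with chronic colitis and 219 CPM with allergy in WT mice, which gave -1.75, -2.72 and -2.33 with 9.01%, 8.44% and 4.2% of genes called (4.21%, 4.6% and 2.49% as lower). Within the high set the values were -2.65, -3.04 and -2.76, with 10.9%, 9.48% and 4.8% of genes called (5.26%, 5.22% and 2.88% as lower). *Cxcl10* was called as lower in the same 3 contrasts, which rest on the few monocytes of WT control hashtag 6 described above, as does its lower value in App NL-G-F control against WT control. In that last contrast *Cxcl2* was also called as lower, at -1.11 (-1.24 to -1.01), with 2.92% of genes called (0.918% as lower). Against App NL-G-F control, *Cxcl2* was called in chronic colitis alone in whole libraries, with 49.3 CPM against 526 in control (-3.17, with 4.5% of genes called). In the high set App NL-G-F food allergy also passed 2-fold, at -1.11 with 1.32% of genes called. *Cxcr4* in monocytes was called as higher in WT chronic colitis (1.03), App NL-G-F acute colitis (1.41, with 5.39% of genes called) and App NL-G-F chronic colitis (1.39). Its levels were 36.4, 57.4, 85.0 and 54.8 CPM for WT and 30.9, 98.3, 97.2 and 54.0 CPM for App NL-G-F, so both control libraries were the lowest of their genotype. In the high set the 3 values were 1.06, 1.49 and 1.44, with 9.48%, 6.5% and 5.35% of genes called. *Csf3r* in monocytes was between 44.8 and 91.8 CPM and was called in none of the 7 contrasts.

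In ILC2, innate lymphocytes of type 2 immunity, *Cxcl2* was the 1 member that could be compared. It was called as lower in WT chronic colitis (-1.23, with 3.25% of genes called) and in App NL-G-F food allergy (-1.02, with 1.34%). Within the high set the first was -1.52, with 4.92% of genes called, and the second -0.89, within 2-fold. WT acute colitis, -0.44 in all cells, passed 2-fold in the high set at -1.05, with 5.92% of genes called. Its 8 library levels ran from 117 to 346 CPM. Over hashtag groups with at least 20 ILC2, the low groups ran from 0 to 18.4 CPM and the high groups from 123 to 864 CPM.

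In type 1 dendritic cells only *Cxcl16* reached the limits, and no member was called. None of *Cxcr2*, *Cxcr4* and *Csf3r* reached the limits in type 2 dendritic cells, so only ligands could be called there. In type 2 dendritic cells *Cxcl2* and *Cxcl10* were called as lower in WT chronic colitis, at -3.14 (-4.39 to -2.84) and -1.17 (-2.43 to -0.65), with 5.4% of genes called (2.75% as lower). *Cxcl10* was also lower in WT food allergy, at -1.06 (-1.94 to -0.75), with 3.14% of genes called. Both ligands were also lower in App NL-G-F control than in WT control, at -1.30 (-1.72 to -1.04) for *Cxcl2* and -1.18 (-2.34 to -0.74) for *Cxcl10*, with 3.66% of genes called (1.24% as lower). That *Cxcl2* contrast was -0.70 in the high set, within 2-fold, and *Cxcl10* was -1.36, with 3.99% of genes called. In the same set *Cxcl2* in App NL-G-F acute colitis, -0.34 in all cells, passed 2-fold at -1.16, with 4.32% of genes called. *Cxcl16* was called in none of the 7 contrasts in type 1 or type 2 dendritic cells, with values from -0.58 to 0.45.

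Fibroblasts could be compared between the WT libraries. *Cxcl1* was lower than in WT control in acute colitis, at -1.80 (-2.65 to -1.25), and in chronic colitis, at -2.13 (-3.32 to -1.44), with 1 of 3 members and 10.8% and 9.68% of genes called. Its UMIs were 43 in WT control, 32 in acute colitis and 14 in chronic colitis. *Cxcl12* was lower in all 3 treatments by less than 2-fold, at -0.66, -0.66 and -0.93, and in the high set at -0.41, -0.27 and -0.46. *Cxcl16* gave -0.15, -0.40 and -0.17. In WT food allergy *Cxcl2* was higher by 4.96 (3.86 to 11.66), with 11.9% of genes called, against 1 UMI in WT control. Within the high set it had 4 UMIs against 1, too few to compare. Of all fibroblast *Cxcl2*, 265 of 319 UMIs were in a cluster of 69 cells with a median depth of 1195 UMIs, in which *Cxcl12* was 102 CPM and *Cxcr2* also 102 CPM, and 14.5% of which carried several hashtags, against 11.1% of the other fibroblasts. WT food allergy held 67 of these 69 cells, 44.4% of its fibroblasts, and WT control held 0. In the other 288 fibroblasts *Cxcl2* was 30.8 CPM and *Cxcl12* 1501 CPM. The part of mixed droplets in the cluster of 69 cells was not tested.

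The rest of the system was read from fixed lists. Of 9 other CXC ligands, *Cxcl11* has no entry in the tables, and none of the rest reached the limits in neutrophils in any contrast. *Pf4*, platelet factor 4, was highest in macrophages at 884 CPM, *Cxcl9* in migratory dendritic cells at 277 CPM and *Cxcl14* in fibroblasts at 67.3 CPM. *Cxcl5*, another CXCR2 ligand, had 7 UMIs in all named classes. Of the receptors, *Cxcr1* reached 3.08 CPM in neutrophils, *Cxcr6*, the receptor of CXCL16, was highest in gamma-delta T cells at 1417 CPM, and *Ackr3*, which also binds CXCL12, in fibroblasts at 35.2 CPM. *Csf3*, which encodes the ligand of the G-CSF receptor, had 202 UMIs and was highest in neutrophils at 4.20 CPM.

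Other chemoattractant receptors of neutrophils were also compared. Of 6 (*Fpr1*, *Fpr2*, *C5ar1*, *Ltb4r1*, *Ptafr* and *Ccr1*), all could be compared in WT acute colitis against WT control, where 1 was called as higher (*Ptafr*, 1.19) and 1 as lower (*Ltb4r1*, -1.25), beside 19.6% of all genes called. With acute colitis in App NL-G-F mice none of 5 was called, and their median was 0.17 beside 0.02 for all genes. Genes that NF-kB induces went the way of *Cxcl2* in both acute colitis contrasts. In App NL-G-F acute colitis 4 of 5 compared were lower, with a median of -2.69 beside 5.16% of all genes called, and in WT acute colitis 5 of 8 were higher, with a median of 1.10 beside 12.7% of all genes called as higher. Of the 1378 neutrophils in that App NL-G-F library 1179 were of the low set, and within the high set 3 of 6 of these genes were higher, with a median of 1.10 beside 12% of all genes called. High against low groups inside App NL-G-F control gave 4 of 5 higher with a median of 2.88, beside -0.17 for all genes, of which 19.1% were called. Of 10 immediate-early genes, 9 of 9 compared were lower in App NL-G-F acute colitis and 4 of 10 higher in WT acute colitis, beside the same shares of all genes. These genes defined the sets in T cells, and within the high set of App NL-G-F acute colitis 4 of 10 were higher. Of 6 colony-stimulating factors and their receptors, *Csf1* was called as higher in WT acute colitis (2.15) and *Csf1r* in WT food allergy (1.04), and none in the other contrasts between libraries. None of 6 other CXC and atypical receptors reached the limits.

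The genes with the most similar pattern were named by Pearson correlation of log2 CPM, as a description. Over 23 cell classes and 7724 genes, *Cxcl2* was most like *Cebpb* (r = 0.911), *Cd14* and *Osm*, *Cxcr2* most like *Stfa1* (0.940), *Padi4* and *Stfa2*, and *Csf3r* most like *Clec4d* (0.939), *Clec4e* and *Clec5a*. *Cxcl12* was most like *Crym* (0.999), *Fmo1* and *Dcn*, all highest in fibroblasts, and *Cxcl16* most like *Cxcl9* (0.949). *Cxcl1* was most like *Plxna4* (0.927), *Cxcl3* most like *Plk3* (0.798), *Cxcl10* most like *Oas1a* (0.786) and *Cxcr4* most like *Ppp1ca* (0.830). Over the 23 hashtag groups of neutrophils and 1778 genes, *Cxcl2* was most like *Junb* (0.986), *Nfkbiz* (0.986) and *Nr4a1* (0.982), of which *Junb* and *Nr4a1* are among the genes that made the sets. *Cxcr2* was most like *Slfn1* (0.881), *Cxcr4* most like *2310001H17Rik* (0.918) and *Csf3r* most like *Ccl6* (0.896). These groups share libraries and differ in depth.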

How the data were processed

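The authors prepared 8 libraries with the 10x 5′ kit and deposited UMI counts per gene and barcode, with hashtag counts. The submitters' processing notes name Cell Ranger 6.1.2 and mm10, and a file header names Cell Ranger 4. V(D)J data were not analysed here. From the deposited counts of all barcodes, cells were called by an order-of-magnitude cutoff on UMIs, set from 3000 expected cells. Barcodes below it with 500 UMIs or more were called by testing their difference from ambient RNA (1000 simulations, false discovery rate 0.01). Cells with fewer than 200 genes or over 5% mitochondrial UMIs were removed. Clusters came from 2000 variable genes without the members, 30 components, 20 neighbours and Leiden resolution 1.0. Resolutions 0.5 and 1.0 were planned with 0.5 as the main value, and were swapped after 0.5 merged monocytes with neutrophil precursors. A cluster took a name from at least 3 detected markers. Scrublet's automatic threshold marked at most 0.0717% of cells in a library, so no cell was removed by it, and the highest scores up to the expected rate were left out as an alternative chosen after seeing the data.

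UMIs were summed per class and library and given as CPM, with exact Poisson intervals, exact Clopper-Pearson intervals for shares and exact conditional intervals for ratios, all at 95% and for counting error only. No test was run, since each condition is 1 library. Contrasts used a prior of 10 CPM and the limits of 50 UMIs and 50 CPM. The step was tested on simulated data. Named genes are the 9 members, the extreme genes of fixed lists and the 3 genes most like each member. A list of adhesion and retention genes is not reported here. The members and lists were chosen with earlier results of these data known. Hashtag groups needed at least 10 T cells to be placed in a set and 20 cells to give a level. Alternatives covered cell calling, gating, resolution, hashtags, doublets, ambient RNA, prior, centring, fold, stage cuts and leaving out each library. Software was Python 3.11.15, numpy 2.4.6, scipy 1.17.1, scanpy 1.11.5, leidenalg 0.10.2, anndata 0.12.19 and pandas 2.3.3.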

Additional observations from a re-analysis of the deposited data

Results flagged for a closer look

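*Cxcl2* in neutrophils went in opposite directions with acute colitis in the genotypes, at 1.55 on the log2 scale for WT mice and -3.93 for App NL-G-F mice. The difference was not tested, since each condition is 1 library. Of the 1378 neutrophils of the App NL-G-F acute colitis library, 1179 carried hashtag 7, which lies in the low set, and the value was 0.89 within the high set.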

How the results depend on the processing

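No paired analysis was possible because each condition is 1 library and no test was run. The alternatives were run on 13 levels, 5 shares, 7 counts of called members, 23 log2 ratios, 16 stage levels and 8 hashtag medians. Of 242 alternative log2 ratios, 163 differed from the main value by at most 0.5 times the width of its counting interval. A further 77 differed by more and 2 reversed. Both reversals were of *Cxcl2* in neutrophils with acute colitis in App NL-G-F, -3.93 in whole libraries, 0.89 in the high set and 1.57 as a mean over hashtag groups. Of 194 alternative levels 186 moved by less than 1 SD of the libraries. Leaving out 1 library moved 4 of the 13 levels by over 1.5 times, *Cxcl2* in neutrophils to 2587 CPM and *Cxcl3* to 14.9 CPM (App NL-G-F acute colitis), and *Cxcl10* in monocytes to 5.43 CPM and *Cxcl1* in fibroblasts to 34.0 CPM (WT control). *Cxcl16* in migratory dendritic cells, 763 CPM, became 801 (order-of-magnitude cutoff), 900.15 (marker gate), 806 (resolution 0.5), 859 (cells with 1 hashtag), 801 (Scrublet) and 712 CPM (mean over hashtag groups), and in macrophages, 243 CPM, became 300.4 (1 hashtag) and 293 CPM (mean over hashtag groups). Thinning lowered the shares of neutrophils with a UMI to 27.4% for *Cxcr2*, 4.83% for *Cxcr4* and 14.9% for *Csf3r*, and that of macrophages for *Cxcl2* to 33.5%. Of called members, WT acute colitis kept 1 of 3 under the order-of-magnitude cutoff. App NL-G-F acute colitis, with 1, had 2 in the low set and 2 at a fold of 1.5. App NL-G-F chronic colitis, with 0, had 1 under the cutoff, 1 in the low set, 3 in the high set and 1 at a fold of 1.5, and the App NL-G-F food allergy and control contrasts had 1 each at that fold. With stage cuts doubled, *Cxcr2* was 111 CPM in secondary high and 258 in secondary low cells, *Cxcr4* 47.2 in azurophil and 30.1 in secondary high cells, and *Csf3r* 39.4 in secondary high and 75.3 in secondary low cells. With cuts at 0.5 times, *Csf3r* was 65.0 CPM in secondary high and 206 CPM in secondary low cells. The cause of these changes was not tested. Intervals cover counting error only, and *Cxcl1* and *Cxcl3* rest on few UMIs.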
